A study of Rattus norvegicus with 12 samples.

Results

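Signals of 4 genes that mark fat cells, Fabp4, Adipoq, Cidec and Ces1d, were followed across the arrays of a rat acrylamide study. They were taken as every probe set whose single gene symbol in the platform annotation is one of these names. Each gene had 1 probe set, so the 4 members stand among 31099 probe sets measured on 12 arrays. Male Wistar rats, whose starting age is given as 25 days in one place and as 3 weeks in another, received acrylamide at 30 mg/kg per day by oral gavage for 21 days, or saline (called solvent in one label). Acrylamide is a small electrophilic monomer that is toxic to long axons. Sciatic nerve, spinal cord and cerebellum each had an acrylamide group and a saline group, with 2 arrays per group. Every array measured tissue pooled from 2 rats. One label places the collection 21 days after treatment, so its timing is not fully settled. The labels say that right and left sciatic nerves were collected and say nothing of whether the fat and connective tissue around them was removed.

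White fat cells store triglyceride in a single large lipid droplet, take up fatty acids from the blood and release them when energy is needed, and secrete hormones. Fat lobules lie in the epineurium, the outer sheath of peripheral nerves such as the sciatic nerve, and next to it, while brain and spinal cord tissue holds almost no fat cells. Fabp4 encodes the fatty acid-binding protein of the fat cell cytoplasm, which capillary endothelium and macrophages also make. Adipoq encodes adiponectin, a hormone secreted almost exclusively by fat cells. Cidec encodes a lipid droplet protein that fuses small droplets into large ones, and Ces1d a carboxylesterase that hydrolyses triglyceride in fat cells and is also abundant in the liver. In bulk tissue, fewer fat cells and less RNA per fat cell cannot be told apart.

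The start-site windows of the members are shown for reference. The 4 genes moved together from array to array, as described below, and whether these windows bear on that was not tested. RefSeq windows of the GRCr8 build, from 250 bases before to 50 bases after the start of the gene, were found for 3 members, and are given 5′ to 3′ on the gene's own strand. Capitals mark matches to any of the motifs searched.
Adipoq, chr11:91240120-91240419, minus strand: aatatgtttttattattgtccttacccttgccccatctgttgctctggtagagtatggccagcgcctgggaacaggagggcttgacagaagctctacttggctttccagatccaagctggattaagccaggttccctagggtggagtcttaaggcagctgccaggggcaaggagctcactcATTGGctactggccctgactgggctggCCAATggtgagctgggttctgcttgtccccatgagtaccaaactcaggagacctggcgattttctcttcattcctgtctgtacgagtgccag
Cidec, chr4:148137066-148137365, minus strand: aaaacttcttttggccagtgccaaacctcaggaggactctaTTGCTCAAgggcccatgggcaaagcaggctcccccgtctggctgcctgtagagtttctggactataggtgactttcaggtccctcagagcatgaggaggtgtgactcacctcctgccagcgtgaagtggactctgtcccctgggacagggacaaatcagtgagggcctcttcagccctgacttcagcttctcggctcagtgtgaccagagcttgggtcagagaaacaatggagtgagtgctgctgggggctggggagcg
Ces1d, chr19:30046244-30046543, plus strand: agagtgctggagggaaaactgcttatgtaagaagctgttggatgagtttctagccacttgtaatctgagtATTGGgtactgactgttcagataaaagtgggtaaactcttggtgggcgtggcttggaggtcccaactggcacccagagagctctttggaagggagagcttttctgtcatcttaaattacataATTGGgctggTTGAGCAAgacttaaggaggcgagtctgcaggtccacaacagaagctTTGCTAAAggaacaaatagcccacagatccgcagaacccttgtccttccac

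The motifs were searched on both strands. TTGCNNAA, a C/EBP-type motif in which N is any base, matched once in the Cidec window and at 2 places in the Ces1d window. Of 33469 RefSeq windows of the same length, 10.6% hold it. CCAAT matched at 2 places in the Adipoq window and at 2 in the Ces1d window, and 37.5% of all windows hold it. AGGTCA, the nuclear receptor half-site, is in 16.2% of all windows, its direct repeat with 1 free base between in 0.0538%, and TATAAA in 14.2%. None of these last 3 was in the 3 windows. These matches describe letters in a window and not binding sites.

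Some arrays carried signals that do not belong to their labelled tissue. Gabra6 and Neurod1, of cerebellar granule neurons, had 2537 and 2585 on acrylamide nerve replicate 1 and 1882 and 2140 on saline nerve replicate 1, and at most 173 on the replicate 2 nerve arrays; on the cerebellum arrays Gabra6 was at least 12267 and Neurod1 at least 13496. The skeletal muscle actin gene Acta1 had 519 and 7532 on the acrylamide nerve arrays, against 1692 and 202 on the saline nerve arrays, and 13974 on saline cord replicate 1. The part of these signals in the results was not tested, and the nerve results are given below with each array left out.

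Signals of all 4 genes were above the test limit on every sciatic nerve array and below it on every spinal cord and cerebellum array. Fabp4, Adipoq and Ces1d were bright on all nerve arrays, while Cidec on saline nerve replicate 2 was near the median signal of an array, which was 162 to 199. Signals are on a linear scale in arbitrary units as deposited, and a signal of 112, the 40th percentile of all probe set means by tissue, served as the limit below which a probe set was not tested in a tissue. The members were proposed with their difference between nerve and cord known, so levels across tissues are described without a test. Fabp4 ranged between 1857 and 10281 over the 4 nerve arrays, against 2.13 to 45.5 in the cord and 4.68 to 21.3 in the cerebellum. Adipoq ranged between 876 and 4871 in the nerve, against 12.6 to 23.5 in the cord and 40.3 to 64.7 in the cerebellum. The nerve ranges did not overlap those of the other tissues for either gene. Cidec ranged between 190.4 and 2563 in the nerve, against 1.75 to 3.35 in the cord and 3.0 to 6.32 in the cerebellum. Ces1d ranged between 735 and 7048 in the nerve, against 20.4 to 64.6 in the cord and 3.0 to 19.3 in the cerebellum. Every cord and cerebellum array lay under 112 for every member, so the ratio of nerve to either tissue has only a lower bound, computed on the log2(signal + 16) scale with 112 standing in for the dim tissue. In acrylamide rats it was at least 27.2-fold for Fabp4, 11.2-fold for Adipoq, 3.55-fold for Cidec and 13.5-fold for Ces1d. In saline rats the bounds were 34.2-, 16.3-, 5.69- and 17.9-fold in the same order of genes. They rest on saline nerve arrays that differed widely: without saline replicate 1 they were 14.6-, 6.95-, 1.61- and 5.85-fold, and without saline replicate 2 they were 80.3-, 38.1-, 20.1- and 55.1-fold. Cord and cerebellum cannot be ranked for any member, since both lie below the limit.

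**Figure D1:**
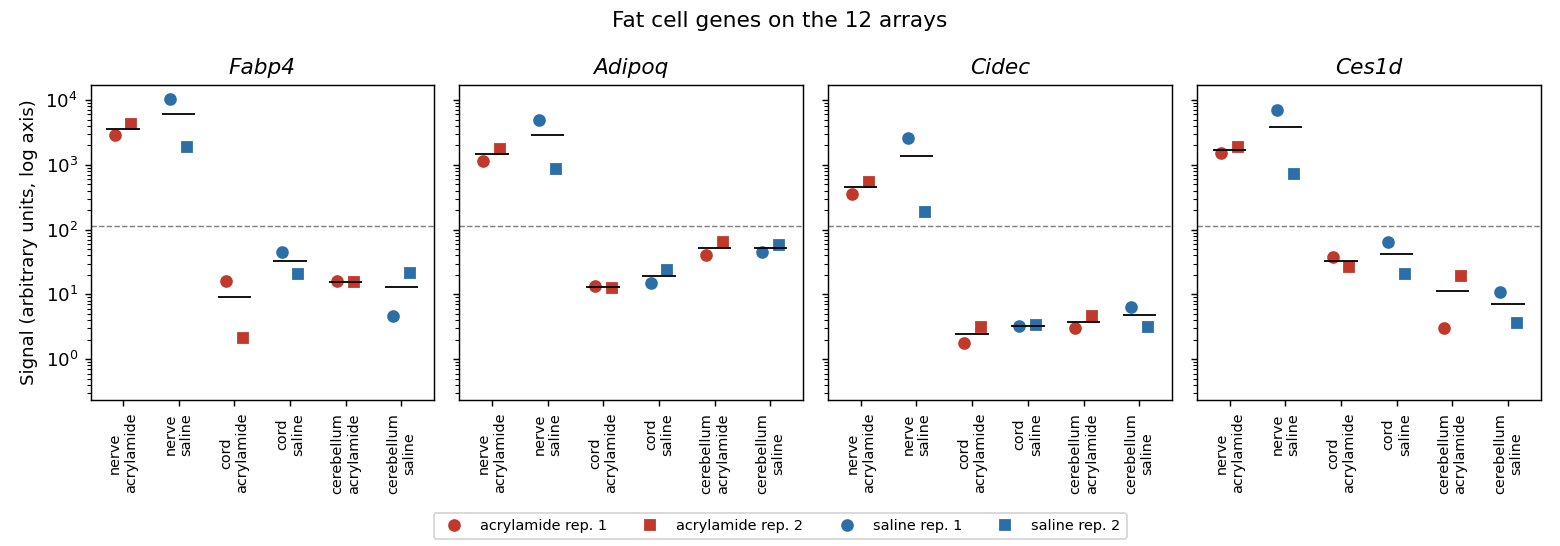
Signal of Fabp4, Adipoq, Cidec and Ces1d on each of the 12 arrays (y axis, arbitrary units, log scale), by tissue and treatment; circles are replicate 1, squares replicate 2, black lines the mean of 2 arrays, and the dashed line the signal of 112 below which a probe set was not tested. All nerve arrays lie above the line and all cord and cerebellum arrays below it, and in the nerve both acrylamide arrays lie between the 2 saline arrays.

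Within the nerve, acrylamide rats did not stand apart from saline rats for any of the 4 genes. Fabp4 had signals of 2855 and 4222 on acrylamide replicates 1 and 2, against 10281 and 1857 on saline replicates 1 and 2. Adipoq had 1157 and 1757 on the acrylamide arrays, against 4871 and 876 on the saline arrays. For both genes the acrylamide arrays lay between the saline arrays, well below saline replicate 1 and above saline replicate 2. Cidec had 357 and 540 on the acrylamide arrays, against 2563 and 190.4 on the saline arrays. Ces1d had 1547 and 1897 on the acrylamide arrays, against 7048 and 735 on the saline arrays. The groups overlapped in the same way for all 4 genes. Both acrylamide arrays lay between the saline arrays for 21.7% of the 18161 probe sets tested in the nerve.

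The acrylamide minus saline difference was estimated with limma on log2(signal + 16), in a single model with a mean for each of the 6 groups, and p-values were adjusted over all probe sets tested in the tissue. Fabp4 had a log2 difference of -0.33 ± 0.69 (SE, n = 2 arrays each), with a 95% interval of -1.89 to 1.22. Adipoq had a log2 difference of -0.53 ± 0.63, with an interval of -1.95 to 0.88. Cidec had a log2 difference of -0.68 ± 0.89, with an interval of -2.69 to 1.33. Ces1d had a log2 difference of -0.41 ± 0.85, with an interval of -2.34 to 1.52. None of the 4 passed (limma adjusted p = 0.9995 for each), beside 0.00551% of all probe sets tested in the nerve, which is 1 probe set, of the clock gene Nr1d1. The intervals reach from a fall to 0.270 of the saline level to a 2.34-fold rise for Fabp4 and from 0.155 to 2.52-fold for Cidec, so neither a sizeable fall nor a sizeable rise of fat cell RNA can be told from these arrays. The model's standard errors of the members were large: the median over all tested probe sets was 0.16, and 0.617% to 1.67% of probe sets had a larger one than the members did. These errors take in the spread of all 6 groups, including cord and cerebellum arrays, where the members lay under the limit. In limma on the 4 nerve arrays alone they were larger: 0.80 for Fabp4, 0.80 for Adipoq, 1.17 for Cidec and 1.03 for Ces1d. With 2 arrays against 2, an exact permutation test could give no p below 0.333.

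The direction of all 4 differences rested on 1 saline array. Without saline replicate 1 the log2 difference was 0.90 ± 0.50 for Fabp4, 0.69 ± 0.33 for Adipoq, 1.14 ± 0.38 for Cidec and 1.20 ± 0.52 for Ces1d (SE), at limma adjusted p = 0.461, 0.401, 0.243 and 0.349. Without saline replicate 2 it was -1.56 ± 0.49 for Fabp4, -1.76 ± 0.33 for Adipoq, -2.50 ± 0.34 for Cidec and -2.03 ± 0.51 for Ces1d, at limma adjusted p = 0.538, 0.153, 0.0603 and 0.352. In these fits the lone saline array was assumed to vary like the arrays of the other groups. Leaving out acrylamide replicate 1 or 2 kept all 4 differences below 0, between -0.97 and -0.05.

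**Figure D2:**
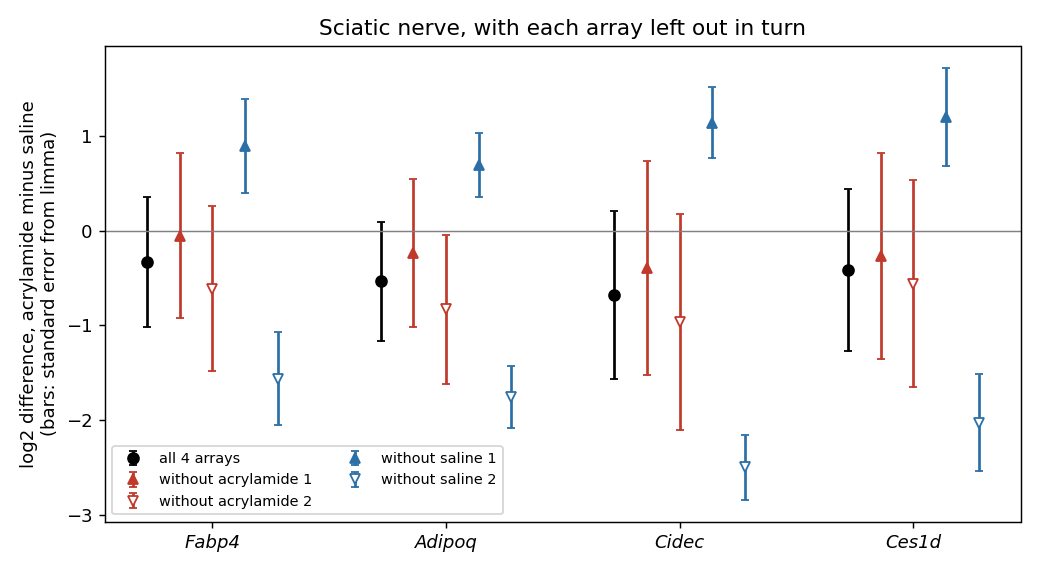
Log2 difference between acrylamide and saline sciatic nerve (y axis, on the log2(signal + 16) scale) for the 4 genes, from all 4 nerve arrays and with each left out in turn; bars are standard errors from limma. All 4 genes lie above 0 without saline replicate 1, between 0.69 and 1.20, and below 0 without saline replicate 2, between -2.50 and -1.56.

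In the spinal cord and cerebellum 0 of the 4 members passed the filter, so none was tested there, and 0% of the probe sets tested in either tissue were called by limma (2.88% and 2.75% had an unadjusted p under 0.05). On spinal cord saline replicate 1, the array with the high Acta1 signal, Fabp4 and Ces1d had their highest cord signals, 45.5 and 64.6. Adipoq and Cidec had theirs on spinal cord saline replicate 2, at 23.5 and 3.35. All of these lay below 112, where signals have no reliable order. Since the members had no reliable signal outside the nerve, no test of a difference between the acrylamide effects in nerve and in the other tissues was possible for them; of the probe sets above the filter in nerve and cord, or in nerve and cerebellum, limma called 0% (422 and 552 had an unadjusted p under 0.05).

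The 4 genes moved together over the nerve arrays and far more between the saline arrays than between the acrylamide arrays. Between acrylamide replicates 2 and 1 the signal ratio was 1.48 for Fabp4, 1.52 for Adipoq, 1.51 for Cidec and 1.23 for Ces1d. Between saline replicates 1 and 2 it was 5.54 for Fabp4, 5.56 for Adipoq, 13.5 for Cidec and 9.60 for Ces1d. On the log2(signal + 16) scale the saline arrays differed by 2.46 for Fabp4, 2.45 for Adipoq, 3.64 for Cidec and 3.23 for Ces1d, a median of 2.85. Over all probe sets tested in the nerve the median of that difference was -0.01, and 4.54% were at least 2-fold higher on saline replicate 1. Ranked from the largest, the members stood at places 109, 113, 11 and 24 of 18161. The order of the arrays was the same for all 4 members: acrylamide replicate 2 above acrylamide replicate 1, and both between saline replicate 1 at the top and saline replicate 2 at the bottom. That order held for 5.12% of tested probe sets. The members did not move by equal steps: on saline replicate 1, Cidec stood 2.16 log2 units above its own mean over the 4 nerve arrays and Ces1d 1.82, against 1.49 for Adipoq and 1.40 for Fabp4.

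**Figure D3:**
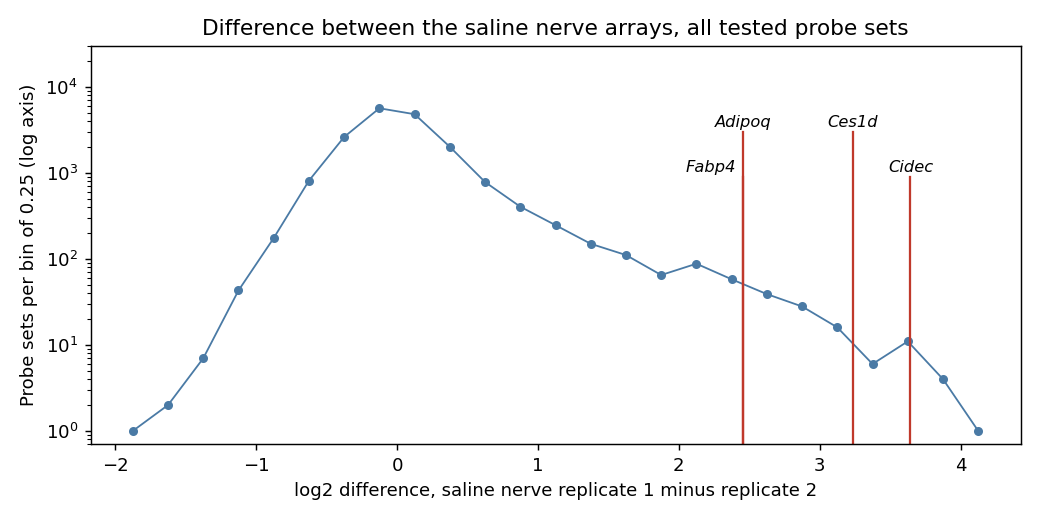
Number of probe sets (y axis, log scale, bins of 0.25) by the log2 difference between saline nerve replicate 1 and replicate 2 (x axis), for the 18161 probe sets tested in the nerve; red lines mark the 4 genes. The curve peaks near 0, and the members lie in its far right end, between 2.45 and 3.64.

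Other genes of fat cells were described from a list of 67 genes in 8 roles, which holds the 4 members; of the other 63 genes, 61 were on the arrays and 50 were tested in the nerve. Against saline, 40 of these 50 had a lower and 10 a higher acrylamide mean, with a median log2 difference of -0.34, beside 49.7% lower and a median of 0.001 over all tested probe sets. None passed limma over all genes, the smallest adjusted p being 0.816, beside the 0.00551% of all probe sets that did. At an unadjusted p under 0.05 limma counted 10 of the 50, 9 lower and 1 higher, beside 5.1% of all tested probe sets. All 10 were among the 43 tested genes with a signal above 112 on at least 1 cord or cerebellum array. Without saline replicate 1 the count was 22 lower and 28 higher, with a median of 0.07, beside 50.2% lower over all tested probe sets. Without saline replicate 2 it was 40 and 10, and 2 genes passed, in a fit that called 0.0826% of all tested probe sets (15 of 18161): the retinol-binding protein gene Rbp4 (log2 difference -1.72, limma adjusted p = 0.0302) and the lipogenic regulator gene Thrsp (named for this; -2.34, adjusted p = 0.0365). That fit held 1 saline nerve array, so the spread between the saline nerve arrays did not enter its standard errors. They fell from 0.66 with all arrays to 0.20 for Rbp4 and from 0.87 to 0.28 for Thrsp. With no saline nerve replicate, that fit cannot decide whether these 2 genes differ between the groups. Only a part of the list is as restricted as the members. On all cord and cerebellum arrays 16 of the 61 were under a signal of 112, as all 4 members were. Of these 16, 7 passed the nerve filter, and 7 of the 7 had a lower acrylamide mean with all arrays and 2 of the 7 without saline replicate 1.

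Of the secreted factors tested besides Adipoq, Cfd and Rbp4 had the array order of the members, and Nampt, Angptl4 and Agt, of which the last 2 were named after their values were seen, did not. Cfd, which encodes adipsin, a complement protease made by fat cells, had signals of 2545 and 2952 on the acrylamide arrays, against 8592 and 1618 on the saline arrays. Rbp4 had 704 and 818, against 2537 and 367. For both genes saline replicate 1 stood far above the other 3 arrays. Nampt, an enzyme of NAD synthesis that many tissues make, had 555 and 634 on the acrylamide arrays, against 513 and 485 on the saline arrays, with no such spread. Of 6 secreted factors tested, Adipoq included, 4 were at least 2-fold higher on saline replicate 1 than on replicate 2. The hormone leptin, Lep, named after its values were seen, was at 7.88 and 16.3 on the acrylamide arrays, against 118 and 3.36 on the saline arrays.

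Among genes of fatty acid uptake, Lpl, the lipoprotein lipase that frees fatty acids from blood lipids, had signals of 4252 and 5244 on the acrylamide arrays, against 9777 and 4389 on the saline arrays. Its nerve log2 difference was -0.47 ± 0.32 (SE), and saline replicate 1 alone stood above the other 3 arrays. Cav1, which coats caveolae in fat cells and endothelium, had 13949 and 15741, against 15154 and 16849, and the fatty acid transporter gene Slc27a1 had 3195 and 3391, against 3081 and 4064. These 2 genes had signals of at least 680 on every cord and cerebellum array. In 8 tested genes of uptake and binding, Fabp4 included, 8 acrylamide means were lower, beside 49.7% over all tested probe sets. That count holds all arrays, and counts by role were not taken with an array left out. Without saline replicate 1 the difference of Fabp4 was above 0, and 22 of the 50 other fat cell genes were lower, against 40 with all arrays. Of these genes, 4 were at least 2-fold higher on saline replicate 1 than on replicate 2, beside 4.54% of all tested probe sets.

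Some droplet and lipolysis genes had the array order of the members and others did not. Mgll, the lipase of the last step of triglyceride breakdown, had signals of 4166 and 5061 on the acrylamide arrays, against 5798 and 8227 on the saline arrays. Pnpla2, the lipase of the first step, had 1241 and 1242, against 1694 and 1535. Both acrylamide arrays lay below both saline arrays for these 2 genes, as they did for 12.9% of tested probe sets. Their nerve log2 differences were -0.59 ± 0.22 and -0.37 ± 0.11 (SE), and neither passed limma (adjusted p = 0.945 and 0.907). Abhd5, the activator of Pnpla2, had 1087 and 1175, against 1173 and 1098. The droplet coat gene Plin1, named after its values were seen, had 602 and 768, against 2650 and 474, in the order of the members.

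Of 8 triglyceride synthesis genes, 7 had a lower acrylamide mean, beside 49.7% of all tested probe sets. This too was counted with all arrays and not with saline replicate 1 left out. Acsl1, which activates fatty acids, had signals of 3238 and 3378 on the acrylamide arrays, against 6256 and 3990 on the saline arrays. Gpd1, which supplies glycerol phosphate, had 3218 and 3714, against 5705 and 3871. Dgat2, which adds the last fatty acid, had 1948 and 1972, against 3479 and 2392. In these 3 genes both acrylamide arrays lay below both saline arrays, as they did for 12.9% of tested probe sets. Their log2 differences of -0.59 ± 0.18, -0.44 ± 0.16 and -0.55 ± 0.17 (SE) did not pass limma (adjusted p = 0.907, 0.924 and 0.907). Pck1, which makes glycerol phosphate precursors in fat cells, instead had 493 and 595, against 2313 and 408, and followed the members. The lipogenic enzymes Fasn, Acly, Elovl6 and Acaca, which Schwann cells and oligodendrocytes also use for myelin lipids, had nerve log2 differences of -0.37 ± 0.09, -0.19 ± 0.09, -0.43 ± 0.17 and -0.32 ± 0.09. None of the 4 passed (limma adjusted p = 0.816 to 0.967), and none was at least 2-fold higher on saline replicate 1.

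Among 7 regulators tested, 3 were at least 2-fold higher on saline replicate 1 than on replicate 2, as was 1 of 4 hormone and glucose response genes, Slc2a4. Klf15 had signals of 1582 and 1466 on the acrylamide arrays, against 1442 and 1913 on the saline arrays, and Srebf1, the lipogenic transcription factor, had 1435 and 1534, against 1506 and 1308. Cebpd and Nr1h3 had log2 differences of -0.15 ± 0.19 and -0.13 ± 0.16 (SE). Pparg, the master regulator of fat cell formation, named after its values were seen, had 119 and 209, against 436 and 98.9, in the order of the members. Slc2a4, the insulin-driven glucose transporter, had 245 and 335, against 696 and 260. Adra2a, Pde3b and Insr had log2 differences of 0.25 ± 0.18, 0.11 ± 0.25 and 0.30 ± 0.12. Of the genes of brown fat, Prdm16 had 317 and 330, against 359 and 583, and Cox7a1, which muscle also expresses, 175 and 321, against 174 and 341. Ppargc1a was lower in the nerve than on any cord or cerebellum array, at 135 to 309, and Cox8b was at most 195 in the nerve. The heat-producing uncoupling protein gene Ucp1, the defining marker of brown fat, named after its values were seen, lay under 112 on all nerve arrays, between 4.19 and 47.9.

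Marker lists of other cells were set beside the members on the 4 nerve arrays. Macrophage markers were the list whose arrays ran in the members' order: 8 of 9 tested genes had it, and 7 of 9 were at least 2-fold higher on saline replicate 1 than on replicate 2. The summed macrophage signal was 8198 and 8930 on the acrylamide arrays, against 11558 and 4959 on the saline arrays. Lyz2, the lysozyme of macrophages, had 4915 and 5342, against 5687 and 3169, and the mannose receptor gene Mrc1 had 693 and 779, against 1482 and 351. With all arrays 5 of the 9 had a higher acrylamide mean, with a median log2 difference of 0.02. Without saline replicate 1 it was 9 of 9, with a median of 0.78, beside 9048 of all 18161 tested probe sets. Without saline replicate 2 it was 0 of 9, with a median of -0.69, beside 9263 of all 18161. The direction thus rested on which saline array was left out. The receptor gene Csf1r, named after its values were seen, had a log2 difference of 1.16 in the fit without saline replicate 1. That fit too held 1 saline nerve array, and the standard error of Csf1r fell from 0.45 with all arrays to 0.14. With no saline nerve replicate, it cannot decide whether Csf1r differs between the groups. Endothelial markers lacked the spread of the macrophage markers, and 0 of 9 had the members' order. Their sum was 13718 and 16221 on the acrylamide arrays, against 15222 and 15945 on the saline arrays. Cldn5 and Tek, of endothelial junctions and signalling, were 3479 and 1997 on acrylamide replicate 1 and 3788 and 2358 on replicate 2, against 3171 and 2544 on saline replicate 1 and 4791 and 2373 on replicate 2. Schwann cell markers had 0 of 8 in that order, with sums of 96303 and 100861, against 96320 and 119714, and all 8 were lower on saline replicate 1 than on replicate 2. Markers of fibroblasts and nerve sheath had 2 of 10 in that order, with sums of 111088 and 131769, against 128976 and 107963. Oligodendrocyte markers had 0 of 6, with sums of 14824 and 12013, against 16655 and 16039, mostly from Ugt8 and Mag, which Schwann cells also express. Mog and Mobp, named after their values were seen, had 274 and 1537 on acrylamide replicate 1 and 16.3 and 126 on replicate 2, against 286 and 2621 on saline replicate 1 and 13.8 and 510 on replicate 2, so both were higher on the replicate 1 arrays, as the cerebellum markers were. The red cell markers summed to 3636 and 3011, against 3925 and 1768. The part of macrophages in the signal of Fabp4, and of any of these cells in the signals of the other members, was not tested.

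Muscle and cerebellum markers differed between the saline nerve arrays about as much as the members, but in other orders over the 4 arrays. Of the tested genes, 7 of 8 muscle and 8 of 8 cerebellum markers were at least 2-fold higher on saline replicate 1 than on replicate 2, with median log2 differences of 2.78 and 3.25, beside 2.85 for the members. The summed signal of 9 skeletal muscle genes was 5777 and 23456 on the acrylamide arrays, against 8075 and 3235 on the saline arrays, so acrylamide replicate 2 had the most. Much of this sum outside that array is Myh1, which had 4102 and 2420 on the acrylamide arrays, against 2635 and 2576 on the saline arrays, and no less than 3408 in the cord or cerebellum, while Acta1 was 8.38 times as high on saline replicate 1 as on replicate 2. The summed signal of 9 cerebellum genes was 13615 and 913 on the acrylamide arrays, against 10370 and 1022 on the saline arrays, so both replicate 1 arrays had the most. None of the tested muscle and cerebellum genes had the members' order. Of 8 liver genes 7 lay under 112 on all nerve arrays, albumin (Alb, named after its values were seen) among them at 7.79 to 84.2, beside Ces1d at 735 to 7048; the remaining one was Apoc3, at 312 to 401.

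**Figure D4:**
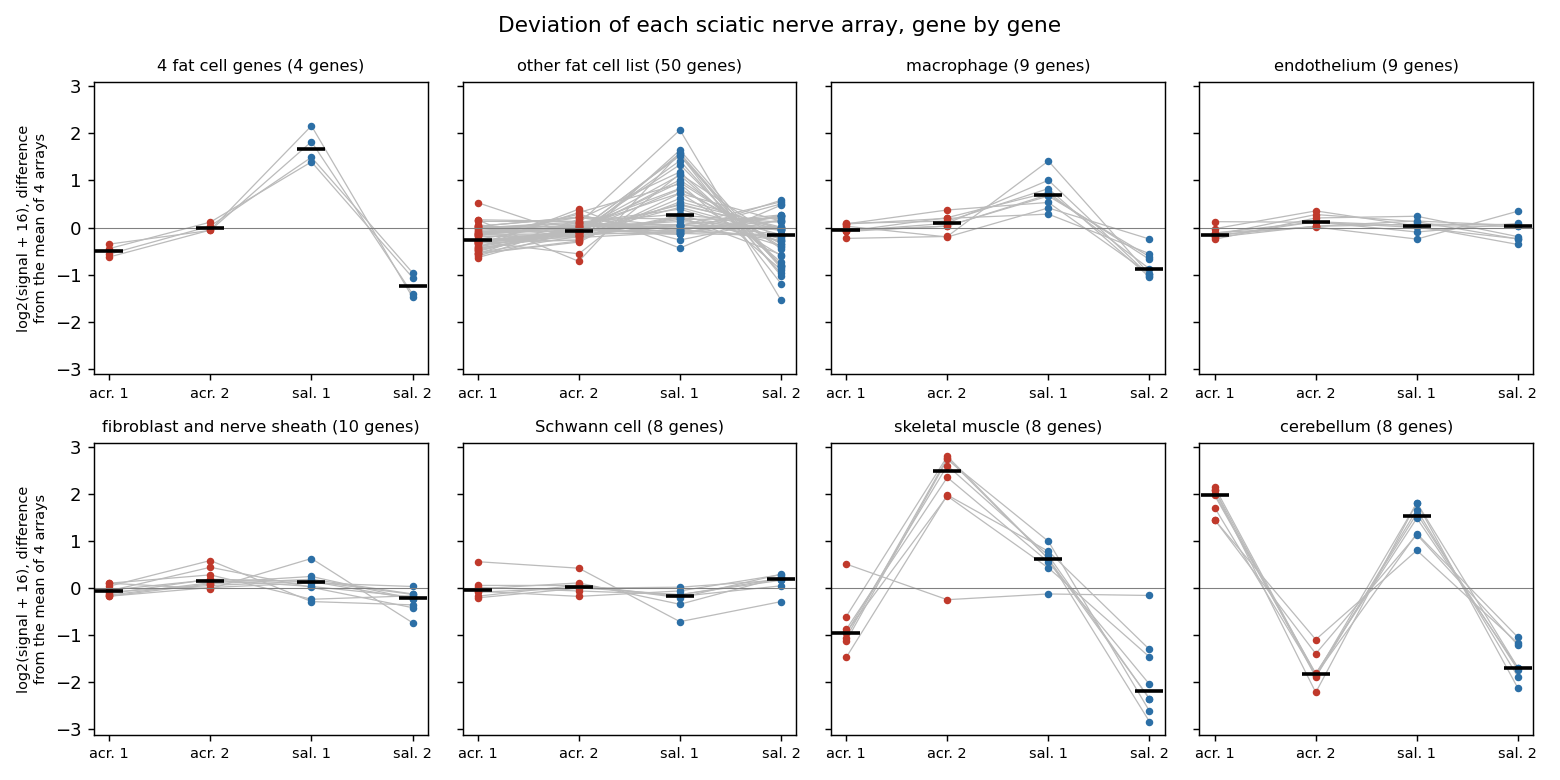
Deviation of each sciatic nerve array from the gene's own mean over the 4 nerve arrays (y axis, log2(signal + 16)), for the 4 genes and 7 lists; each grey line is a gene that passed the nerve filter, and the black bars are medians. The 4 genes and the macrophage list have their highest array in saline replicate 1 and their lowest in saline replicate 2, while the muscle and cerebellum lists have other patterns and the endothelial list is nearly flat.

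Among 10179 genes with 1 symbol, other than the members, that passed the nerve filter, those most like each member were sought by the root mean square difference of log2(signal + 16) over the 12 arrays, with each profile centred on its own mean. This measure weighs the step between nerve and the other tissues and the spread within each tissue together. Cfd was among the 5 nearest of all 4 members, at 0.44 from Cidec, 0.51 from Ces1d, 0.72 from Adipoq and 0.94 from Fabp4. Pck1 was among the nearest of Cidec (0.44) and Adipoq (0.65), and Obp3 of Cidec (0.57), Adipoq (0.80) and Ces1d (0.80). Mcpt1l1, of a mast cell protease family, was nearest to Adipoq (0.59) and was also among the nearest of Cidec (0.59). Dpt, a matrix protein of connective tissue, was among the nearest of Cidec (0.61) and Ces1d (0.61) on 2 different probe sets. Car3, a carbonic anhydrase abundant in fat and muscle, was among those of Fabp4 (0.86) and Ces1d (0.71). Col9a1 was the nearest of all to Fabp4 (0.83), and Meox2 and Dmbt1 completed its list at 1.07 and 1.12. Between saline nerve replicates 1 and 2, Col9a1, Meox2 and Dmbt1 differed by 0.76, 0.48 and 0.47 on the log2(signal + 16) scale, beside 2.46 for Fabp4. Meox2 was also near Ces1d (0.74) and Dmbt1 near Adipoq (0.73). Between members the closest pair was Adipoq and Cidec at 0.52. The cord and cerebellum arrays, where the members lay under 112, enter all of these distances. Between the saline nerve arrays, the difference of Cidec (3.64) was nearer that of Ces1d (3.23) than that of Adipoq (2.45).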

How the data were processed

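The authors deposited 1 intensity signal per probe set on a linear scale, which came from GCOS 1.1 according to the notes on processing (per the submitters' processing notes). The sources used here name neither its algorithm nor its background correction and scaling target. RNA was labelled with biotin on 1-colour Affymetrix arrays, per the labels' protocols. From the values, means trimmed by 2% at each end lay between 500.1 and 500.2 on all 12 arrays, medians between 162 and 199, and no 2 arrays were identical. The number of arrays limits the precision, and p-values measure the spread between replicate pools of rats over all 6 groups together. That spread takes in whatever else differs between replicate arrays, such as signals that do not belong to the labelled tissue.

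Of 31099 probe sets, 57 controls were left out. Of the rest, 20826 had 1 symbol in the platform annotation, 436 had several and 9780 had none, and symbols were updated by gene ID through RefSeq's GRCr8 table. A probe set was tested in a tissue where its mean over 4 arrays was above 112, the 40th percentile of all tissue means. Values were log2(signal + 16), so differences of dim genes are understated. limma 3.58.1 in R 4.3.3 (lmFit, eBayes with a trend) fitted 6 group means to 21332 probe sets, with 6 residual and 3.13 prior degrees of freedom, and its two-sided p-values were Benjamini-Hochberg adjusted, with a threshold of 0.05. The fit was tested on simulated data with noise drawn independently for each probe set and array. Such data do not cover movements that many probe sets share, like those between the saline nerve arrays. For a listed gene with several probe sets, the brightest was used.

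The members, lists and tests were chosen with earlier results of these data known. All members were named; per role of the fat cell list the 4 genes brightest in the nerve, per other list 2, and the 5 genes most like each member; genes named after their values were seen are marked as such, and Nr1d1 is one. The alternatives covered the scaling (quantile, median centring), the pseudocount (1, 64), the filter (none, 60th percentile), the eBayes options (no trend, robust), the 4 arrays of a tissue alone, a replicate block, and each array left out. No genome coordinates of probe sets were used, and _a probe sets such as that of Fabp4 can bind several transcripts of a gene.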

Additional observations from a re-analysis of the deposited data

How the results depend on the processing

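The 4 nerve differences stayed below 0 under each of the 10 alternatives that kept all nerve arrays, and none passed. They lay at -0.39 to -0.28 for Fabp4, -0.59 to -0.53 for Adipoq, -0.73 to -0.67 for Cidec and -0.47 to -0.41 for Ces1d. Only the normalizations and pseudocounts could move a difference. The filters, eBayes options, replicate block and nerve arrays alone leave the group means as they are and change only errors and p-values. Leaving out 1 nerve array gave -1.56 to 0.90 for Fabp4, -1.76 to 0.69 for Adipoq, -2.50 to 1.14 for Cidec and -2.03 to 1.20 for Ces1d, positive only without saline replicate 1; the cause was not tested. A fit without a filter set the nerve effect against tissues where the members lie below the limit, so its values are no test. Nerve minus cord it gave 0.63 for Fabp4 (1.77 with a pseudocount of 1 and 0.07 with 64), -0.27 for Adipoq (-0.05 and -0.42), -0.61 for Cidec (-0.33 and -0.68) and -0.25 for Ces1d (-0.23 and -0.31). With 1 array left out it ran between -0.59 and 1.86 for Fabp4 (reversed without nerve saline replicate 2), -1.50 and 0.96 for Adipoq, -2.44 and 1.21 for Cidec and -1.86 and 1.37 for Ces1d. It was above 0 for these 3 without nerve saline replicate 1, for Adipoq also without nerve acrylamide replicate 1 (0.03) and for Ces1d without cord saline replicate 2 (0.33). Between nerve and cerebellum it was -1.76 to 0.70, -1.76 to 0.69, -2.44 to 1.21 and -2.21 to 1.03, each above 0 only without nerve saline replicate 1.

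The 1 probe set called in the nerve became 2 with quantile normalization, a pseudocount of 64, no filter or robust eBayes, and 0 (323 at an unadjusted p under 0.05) in limma on the 4 nerve arrays alone. With the replicate block, limma called 0 in the nerve (1118 at an unadjusted p under 0.05), and the members' adjusted p was 0.939 to 0.964. Numbers 1 and 2 do not pair arrays by any label, and the deviations of same-numbered nerve arrays correlated at 0.417 over probe sets, against -0.06 in the cord and 0.06 in the cerebellum. Leaving out an array gave counts of 0 to 36 in the nerve (36 without saline replicate 1, 15 without saline replicate 2, 0 without acrylamide replicate 2), 0 to 1 in the cord and 0 to 2 in the cerebellum, where the cerebellum arrays alone gave 1. The nerve against cord effect gave 0 to 4 and nerve against cerebellum 0 to 1. A fit without an array holds 1 array in that group, so the spread within that group does not enter such counts. The 40 other fat cell genes with a lower acrylamide mean became 22 to 41, 22 without saline replicate 1. With the 60th percentile signal as stand-in, the acrylamide lower bounds of the nerve level were 10.8-fold for Fabp4, 4.46-fold for Adipoq, 1.41-fold for Cidec and 5.35-fold for Ces1d. The saline bounds became 13.6-, 6.45-, 2.26- and 7.12-fold in the same order of genes. Leaving out a saline array moved them to 14.6- to 80.3-fold, 6.95- to 38.1-fold, 1.61- to 20.1-fold and 5.85- to 55.1-fold. The median difference between the saline arrays over the members stayed at 2.71 to 2.87 under the other normalizations and pseudocounts, which were chosen after seeing the data. Signals under 112 have no reliable order, which limits every statement on the members in the cord and cerebellum.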
